A study of Saccharomyces cerevisiae with 11 samples.

Results

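The genes described here are 10 nitrogen catabolite-repressed genes of budding yeast, taken by name from the 6256 genes on an Agilent whole-genome array. They comprise the permease genes AGP1, GAP1, MEP2, PUT4, DAL4 and DAL5, the catabolic enzyme genes DAL1, DAL2 and PUT1, and the regulator gene DAL80. All 10 were among the 5921 genes that entered the fits. The arrays, 11 in all, compared 2 RNA samples each. The 5 deletion strains were asf1, chz1, nap1, rtt106 and vps75, each made from BY4742 by removing 1 histone chaperone gene and each measured once untreated and once after trichostatin A (TSA), an inhibitor of histone deacetylases. The 11th array held BY4742 with TSA. All cultures grew at 30 °C in YPD, a rich medium with glucose, and TSA was present at 10 µM for 1 h. The reference on every array was read as untreated BY4742, and the marker gene deletions of BY4742 are shared by all groups. Labels give the reference as Cy5 and the experimental RNA as Cy3 on each array, with no dye swap. The direction of each ratio was read from the deleted gene, and that of the wild type array, which has none, is only likely. With 1 array per strain and treatment no group has a replicate, and whether the deletion strains were single clones was not given in the sources used here. Values are log2 ratios of experimental over reference RNA, written below as asf1Δ, chz1Δ and so on for the deletions.

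In nitrogen catabolite repression, yeast grown on good nitrogen sources such as glutamine keeps genes for poorer sources low. The GATA activators Gln3 and Gat1 are then held in the cytoplasm, Gln3 by Ure2, while the GATA repressors Dal80 and Gzf3 compete for the same promoter sites. Permeases and enzymes for amino acids, proline, ammonium and allantoin are known targets, and several also need a pathway activator such as Put3 for proline or Dal81 and Dal82 for allantoin.

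The deleted gene had a log2 ratio between −4.53 and −2.86 on its own 10 arrays and between −0.39 and 0.39 on the arrays of the other deletions. The median signal of a channel ranged from 358 to 1097, and the 2 repeat measurements of a probe on an array correlated between 0.811 and 0.972 over genes. On both vps75Δ arrays the 210 genes of chromosome IX stood apart, with median log2 ratios of 0.88 untreated and 0.87 with TSA, or 1.84-fold and 1.82-fold. On the chz1Δ array with TSA the 161 genes of chromosome III had a median of 0.35. The other medians among 176 combinations of array and chromosome lay between −0.11 and 0.07. DAL1, DAL2 and DAL4 lie on chromosome IX and AGP1 on chromosome III. DNA copies were not measured, so more copies and more RNA per copy cannot be told apart. On the chz1Δ array without TSA the reference channel itself differed from that of the other arrays: 710 genes, or 12.0%, were at least 2-fold from their median reference level over the arrays. On the nap1Δ array without TSA, whose NAP1 signal was low in the column that holds the reference elsewhere and whose ratios were therefore turned, that share was 18.0%. On the other 9 arrays it was at most 1.03%.

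GAP1, PUT1, DAL1, AGP1 and MEP2 were each at least 2-fold from the reference on at least 1 array, 5 of 10 genes against 11.8% of all genes. Without the chz1Δ arrays these were GAP1, PUT1 and DAL1, 3 of 10 against 6.72%. Of the 110 ratios of the 10 genes, 7 were higher and 2 were lower by 2-fold or more, together 8.18%, against 1.81% of all ratios. DAL5, DAL4, DAL2, PUT4 and DAL80 stayed under 2-fold on all 11 arrays. The number of such ratios depends on the amount added to each signal before the log: 50 was added here, while with nothing added 17 of the 110 ratios passed, and with 200 added 3 did.

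**Figure D1:**
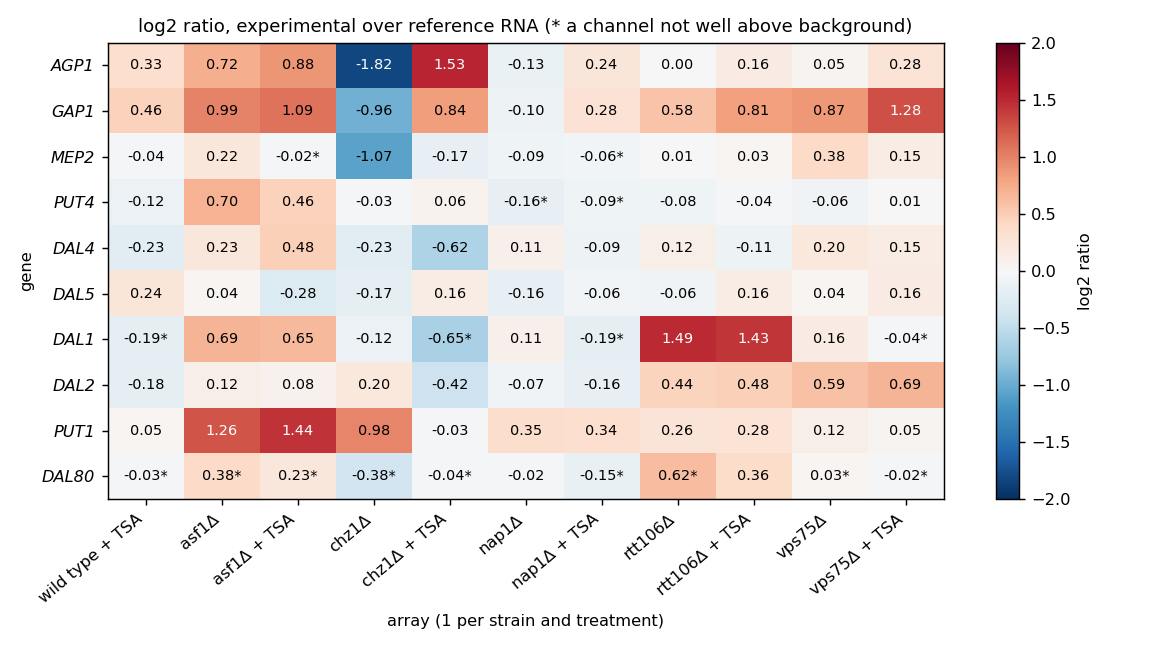
Log2 ratio of experimental over reference RNA for each of the 10 genes (rows) on each of the 11 arrays (columns). Colour runs from blue (lower, −2) to red (higher, 2), and an asterisk marks a ratio with at least 1 channel not well above background. AGP1 was lowest in chz1Δ without TSA, at −1.82, and highest in chz1Δ with TSA, at 1.53.

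GAP1 encodes the general amino acid permease, which takes up most amino acids. Its ratio without TSA was 0.99 in asf1Δ, −0.96 in chz1Δ, −0.10 in nap1Δ, 0.58 in rtt106Δ and 0.87 in vps75Δ. With TSA it was 1.09 in asf1Δ, 0.84 in chz1Δ, 0.28 in nap1Δ, 0.81 in rtt106Δ, 1.28 in vps75Δ and 0.46 in the wild type. GAP1 was thus above the reference in the asf1, rtt106 and vps75 deletions whether or not TSA was added, and close to it in nap1Δ. GAP1 also varied more than most genes, since its SD over the 11 arrays, 0.64, was at the 97.3 percentile of all genes.

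AGP1 encodes a broad, low-affinity amino acid permease, induced by the Ssy1-Ptr3-Ssy5 amino acid sensor as well as subject to catabolite repression. Its ratio without TSA was 0.72 in asf1Δ, −1.82 in chz1Δ, −0.13 in nap1Δ, 0.00 in rtt106Δ and 0.05 in vps75Δ. With TSA it was 0.88 in asf1Δ, 1.53 in chz1Δ, 0.24 in nap1Δ, 0.16 in rtt106Δ, 0.28 in vps75Δ and 0.33 in the wild type. Outside the chz1 strain only asf1Δ exceeded 0.5 in either condition.

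The other permease genes stood closer to the reference. MEP2, the high-affinity ammonium permease that also signals filamentous growth, ranged from −1.07 to 0.38 with a median of −0.02, and its lowest value was that of chz1Δ without TSA. PUT4, the proline permease, was 0.70 in asf1Δ and 0.46 in asf1Δ with TSA, and between −0.16 and 0.06 on the other 9 arrays. The allantoin permease gene DAL4 ranged from −0.62 to 0.48. DAL5, the allantoate permease gene, ranged from −0.28 to 0.24, and its SD of 0.17 was at the 33.9 percentile of all genes. The experimental channel of MEP2 was not well above background on 2 arrays, and that of PUT4 on both nap1Δ arrays.

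Among the enzymes, PUT1 encodes proline oxidase, the first enzyme of proline breakdown. Its ratio was 1.26 in asf1Δ and 1.44 in asf1Δ with TSA. It was 0.98 in chz1Δ and −0.03 in chz1Δ with TSA, and between 0.05 and 0.35 on the other 7 arrays. Both asf1Δ values were above those of the other 4 strains, and the untreated chz1Δ value lay just under 2-fold.

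DAL1 encodes allantoinase, which opens the allantoin ring. Its ratio was 1.49 in rtt106Δ and 1.43 in rtt106Δ with TSA, then 0.69 and 0.65 in asf1Δ without and with TSA. On the other 7 arrays it lay between −0.65 and 0.16, and on 4 of those, the wild type, chz1Δ, nap1Δ and vps75Δ arrays with TSA, the experimental channel was not well above background. DAL2, allantoicase, which acts after allantoinase, ranged from −0.42 to 0.69, with its highest values, 0.59 and 0.69, in vps75Δ. DAL80 ranged from −0.38 to 0.62. Neither channel of DAL80 was well above background on 6 of the 11 arrays, and only 2 arrays had both channels above it. In rtt106Δ without TSA, where the DAL80 reference was at background, the deletion was at least 1.41-fold higher, and in asf1Δ without TSA at least 1.22-fold. Such bounds set the lowest signal measured above background in place of the dim channel.

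The first comparison asks how TSA changed these genes over the 5 deletions, each strain paired with itself. No member passed, and neither did any other gene (0 of 5921, or 0%, at an adjusted p under 0.05 by limma with Benjamini-Hochberg adjustment, and 254, or 4.29%, at an unadjusted p under 0.05). The TSA difference of AGP1 was 0.16 in asf1Δ, 3.35 in chz1Δ, 0.37 in nap1Δ, 0.16 in rtt106Δ and 0.23 in vps75Δ. Its mean was 0.85 (SE 0.469, 5 strains, limma adjusted p 0.814), and 0.23 (SE 0.0727, adjusted p 0.432) without the chz1 pair. The TSA difference of GAP1 was 0.09 in asf1Δ, 1.80 in chz1Δ, 0.39 in nap1Δ, 0.24 in rtt106Δ and 0.41 in vps75Δ. Its mean was 0.59 (SE 0.240, limma adjusted p 0.814), and 0.28 (SE 0.0793, adjusted p 0.331) without the chz1 pair. Both permease genes were higher with TSA in 5 of 5 strains, which held for 4.12% of all genes, and both were above the reference on the wild type array with TSA. DAL1 was lower with TSA in 5 of 5 strains, by a mean of −0.23 (SE 0.0950, limma adjusted p 0.814), as were 3.87% of all genes, but 3 of the 5 treated values were not well above background. The other 7 genes had mean differences between −0.18 and 0.10. The untreated and treated ratios overlapped for all 10 genes, while they did not for 0.524% of all genes. The median mean difference was −0.02 for the 10 genes and 0.00 for all genes.

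On the deletion arrays with TSA and the chz1Δ array without it, the channel labels name the untreated deletion strain as the reference, while the array descriptions name the wild type. The deleted gene was detected in the reference channel on all 10 deletion arrays, with a signal of at least 716, so the wild type reading was kept. Under the other reading the array ratio is itself the TSA difference, and GAP1 would be higher with TSA by 0.86 (limma adjusted p 0.0242).

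**Figure D2:**
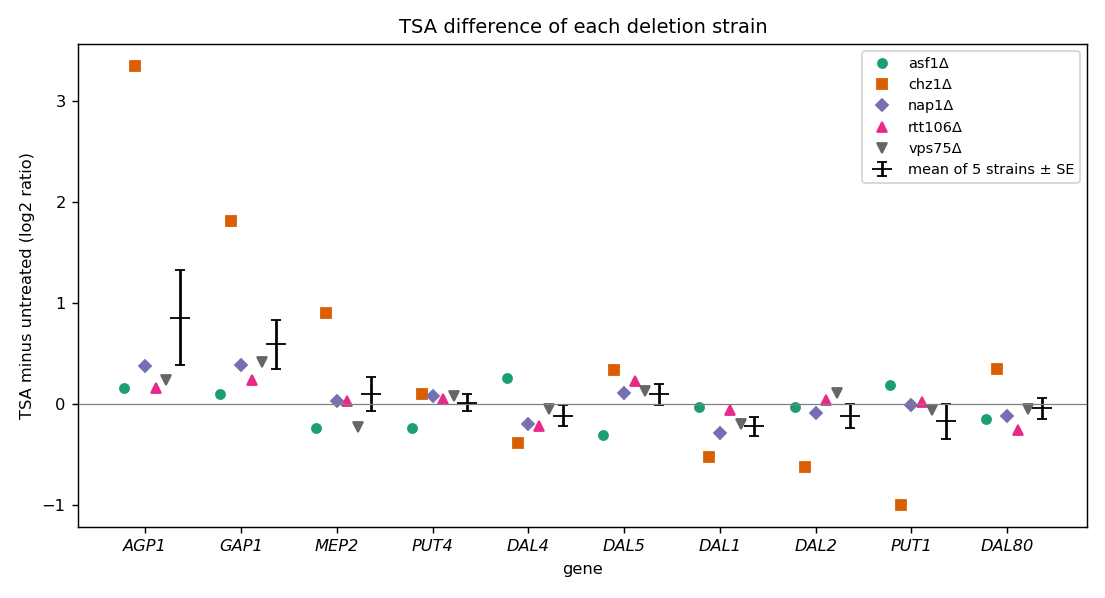
Difference of log2 ratios, TSA minus untreated, for each gene (x axis) in each deletion strain (symbols), with the mean of the 5 strains and its SE (black). The chz1Δ points of AGP1 at 3.35 and GAP1 at 1.80 lie far above those of the other 4 strains.

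The next comparison asks whether the TSA difference of 1 strain differed from that of the other 4. The chz1Δ side of this test is the difference of 1 pair of arrays with no repeat, so its SE comes from the other 4 strains and chz1Δ is assumed to vary like them. On that assumption chz1Δ differed for 6 of 10 genes, against 29.9% of all genes (16% higher and 13.9% lower). AGP1 (3.12, SE 0.163, limma adjusted p 6.04e-05), GAP1 (1.52, SE 0.177, adjusted p 8.56e-04), MEP2 (1.01, SE 0.179, adjusted p 0.00436) and DAL80 (0.49, SE 0.159, adjusted p 0.0472) had a higher difference there. PUT1 (−1.03, SE 0.165, limma adjusted p 0.00278) and DAL2 (−0.63, SE 0.159, adjusted p 0.0191) had a lower one. The DAL80 value rests on dim signals: its experimental channel was not well above background on either chz1Δ array, nor was its reference with TSA. When the adjustment also covered the 5 strains, DAL2 and DAL80 no longer passed, with limma adjusted p of 0.0940 and 0.228. For asf1Δ, nap1Δ, rtt106Δ and vps75Δ 0 of 10 genes passed, against 0% of all genes in each (2.48%, 1.91%, 0.152% and 0.152% at an unadjusted p under 0.05). In those fits the chz1 pair is part of the spread, and the interval of 2 SE around the AGP1 difference ran from −3.41 to 1.67 for asf1Δ.

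Most of the chz1Δ difference of the 3 permease genes lay in the reference channel. The AGP1 probe read 8382 in the reference of the chz1Δ array without TSA and between 307 and 901 in the reference of the other 10 arrays. The GAP1 probe read 1017 there and 128 to 303 elsewhere. The MEP2 probe read 427 there and 58.0 to 122 elsewhere. Relative to the channel median these 3 reference levels were 6.46, 2.29 and 2.06 times their median over the arrays, and 3.26% of all genes were at least 2-fold above it. From untreated to TSA the experimental level of AGP1 in chz1Δ went up by 0.59 while its reference level changed by −2.69. For GAP1 the changes were 0.66 and −1.21, and for MEP2 −0.01 and −1.08. The reference moved for the other 3 genes too: by 0.87 for DAL2, whose experimental level changed by 0.33, by 0.38 for PUT1, with −0.48 in the experimental channel, and by 0.71 for DAL80, with 1.03. Relative to the channel median, the PUT1 and DAL80 references of the untreated chz1Δ array were below those of the other 10 arrays, and that of DAL2 was within their range. With the experimental channel alone, an alternative added after seeing the data, 0 of 10 genes passed for chz1Δ, against 0.0676% of all genes by limma (16.6% at an unadjusted p under 0.05), and the AGP1 difference was 0.27 (adjusted p 0.740). Among 54 related genes of the pathway, MEP3, DUR1,2, GLT1 and PTR2 were also at least 2-fold above their median in that reference. Relative to the medians of their chromosomes the same 6 genes passed, against 29.8% of all genes, and the AGP1 difference was 2.77 (limma adjusted p 1.36e-04).

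**Figure D3:**
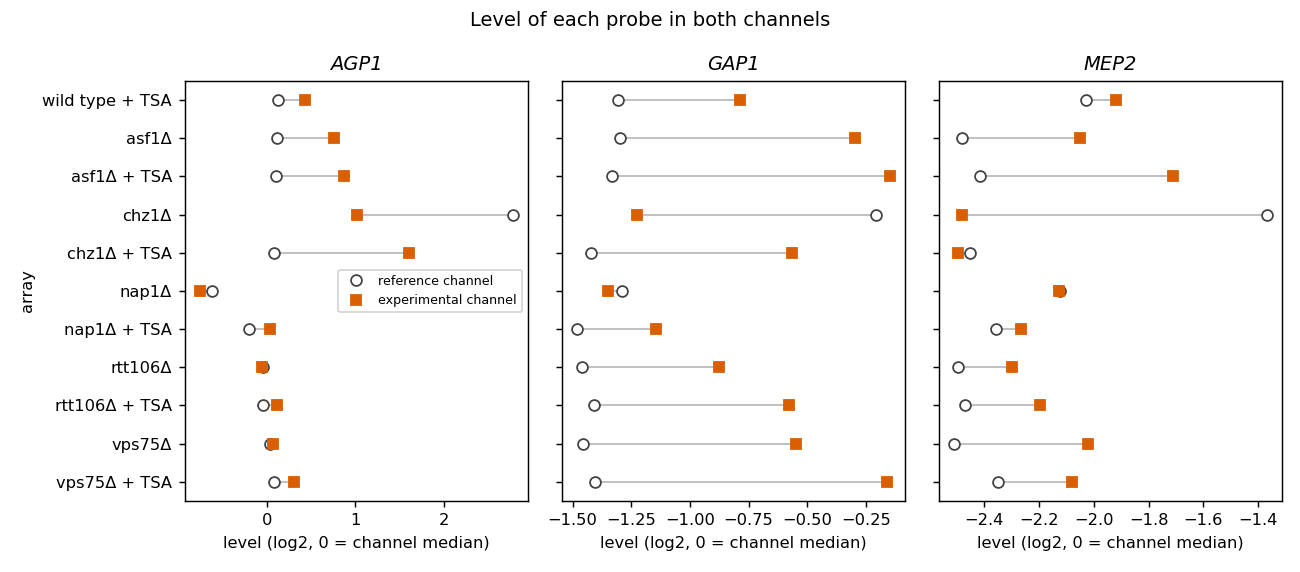
Level of the AGP1, GAP1 and MEP2 probes in the reference channel (open circles) and the experimental channel (squares) of each array, as log2 relative to the median of the channel; each panel has its own x axis. In all 3 panels the reference point of chz1Δ without TSA lies to the right of all other reference points, and for AGP1 and GAP1 the experimental point of chz1Δ with TSA lies to the right of that without.

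The last comparison set each deletion against the mean of the other 4, with TSA as a term. The 2 arrays of a strain are its only repeats and may share a culture, so the spread may be too small. Of 50 contrasts 3 passed. DAL1 was higher in rtt106Δ by 1.38 (SE 0.119, limma adjusted p 0.00223), where 2.26% of all genes passed. The size of this contrast is uncertain, since the DAL1 reference in rtt106Δ read 77.4 and 66.3, near the 50 added to each signal. Over 15 alternatives it ran from 0.81 to 1.92. PUT4 was higher in asf1Δ by 0.63 (SE 0.103, limma adjusted p 0.0323), where 1.96% passed. On the asf1Δ array with TSA, whose repeat correlation of 0.811 was the lowest, the experimental PUT4 signal of 270 was just above the background limit of 263. Without TSA it was 167, against a limit of 49.2. DAL1 was lower in chz1Δ by −0.92 (SE 0.119, limma adjusted p 0.0450), where 0.287% passed, a value that rests in part on a probe not well above background and that did not pass relative to the median of its chromosome (−0.68, adjusted p 0.102, where 0.152% of all genes passed). It did not pass in 12 of 15 alternatives, with a limma adjusted p of up to 0.442. PUT1 in asf1Δ was 1.06 above the other strains (SE 0.213, limma adjusted p 0.0649). In nap1Δ and vps75Δ 0 of 10 genes passed, against 0.0338% and 2.96% of all genes. With the experimental channel alone DAL1 in rtt106Δ was 1.26 (limma adjusted p 0.0735) and PUT4 in asf1Δ was 0.99 (adjusted p 0.182). PUT4 in asf1Δ passed without the chz1 pair, and without the nap1, rtt106 or vps75 pair its limma adjusted p was 0.0899, 0.0976 and 0.114.

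The deviations of the 2 chz1Δ arrays from the group means correlated at −0.152 over genes, against 0.400 to 0.676 in the other strains. Each contrast was also made without it, against the other 3 deletions, and 15 of 40 contrasts then passed. In asf1Δ 4 of 10 genes were higher than in the other 3 deletions, as were 7.82% of all genes, where 4.1% were lower and 11.9% passed in all. These were PUT1 by 1.12 (SE 0.0851, limma adjusted p 1.56e-04), AGP1 by 0.70 (SE 0.0839, adjusted p 0.00130), PUT4 by 0.65 (SE 0.0926, adjusted p 0.00312) and GAP1 by 0.42 (SE 0.0916, adjusted p 0.0212). PUT2, which encodes the next enzyme of proline breakdown after PUT1, is not among the 10 genes and did not pass in asf1Δ (0.30, adjusted p 0.0698). In nap1Δ 4 of 10 genes were lower than in the other 3 deletions, as were 5.2% of all genes, where 2.21% were higher and 7.41% passed in all. GAP1 differed by −0.84 (SE 0.0916, limma adjusted p 0.00231), DAL1 by −0.77, DAL2 by −0.51 and DAL80 by −0.35. The nap1Δ ratios of these 4 genes lay between −0.19 and 0.28, near the reference, and those of the other 3 strains were higher on average. Both DAL80 channels were well above background only in nap1Δ without TSA and in rtt106Δ with TSA, so its contrast rests largely on dim signals. Relative to the medians of the chromosomes DAL2 in nap1Δ did not pass (−0.21, limma adjusted p 0.189), and DAL1 was −0.46 (adjusted p 0.0204). In asf1Δ, DAL4 (0.55, limma adjusted p 0.0130) and DAL1 (0.43, adjusted p 0.0157) passed as well on that scale.

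In rtt106Δ, where 14.4% of all genes passed (7.11% higher and 7.33% lower), DAL1 was higher than in the other 3 deletions by 1.23 (SE 0.0871, limma adjusted p 8.84e-05) and DAL80 by 0.41 (adjusted p 0.0139). PUT1 was lower there by 0.33 (limma adjusted p 0.0366), although its rtt106Δ ratios, 0.26 and 0.28, were above the reference. The DAL80 reference in rtt106Δ without TSA was not well above background. Relative to the medians of the chromosomes DAL1 was higher by 1.52 (limma adjusted p 3.45e-05) and DAL2 by 0.55 (adjusted p 0.00395), while PUT1 did not pass. In vps75Δ, where 9.19% of all genes passed (4.64% higher and 4.54% lower), GAP1 was higher than in the other 3 deletions by 0.47 (SE 0.0916, limma adjusted p 0.0120) and DAL2 by 0.49 (adjusted p 0.00494). PUT1 was lower there by 0.57 (limma adjusted p 0.00243) and DAL1 by 0.63 (adjusted p 0.00149). The vps75Δ ratios of PUT1 were 0.12 and 0.05 and those of DAL1 0.16 and −0.04, near the reference.

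**Figure D4:**
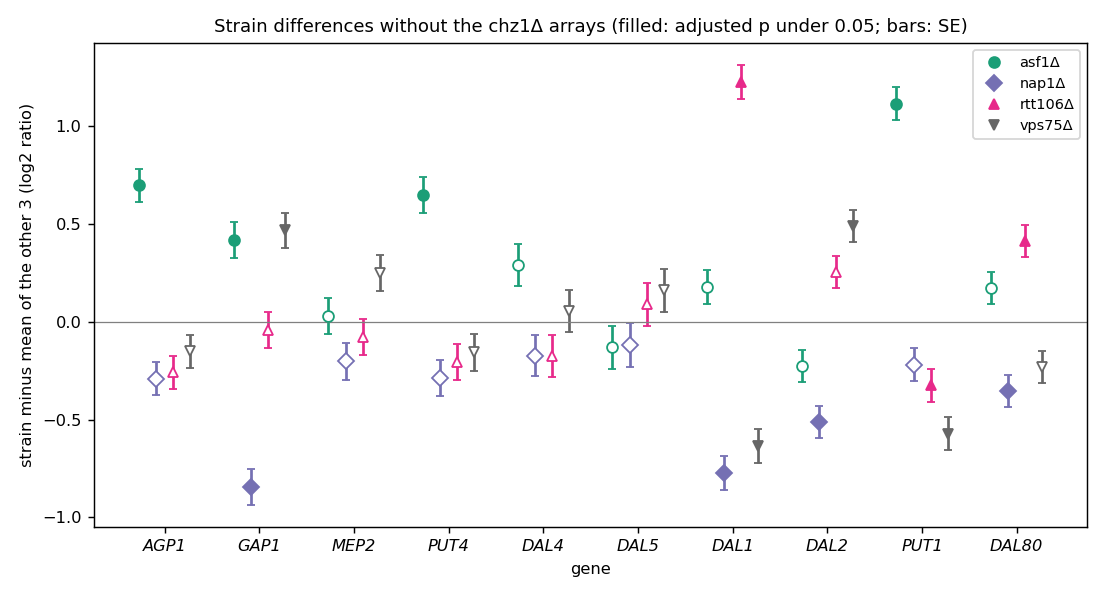
Difference between each deletion strain and the mean of the other 3 (log2 ratio, both arrays of a strain, with the SE as bars) for each of the 10 genes, without the chz1Δ arrays. Filled symbols passed an adjusted p under 0.05 by limma. The DAL1 point of rtt106Δ at 1.23 and the PUT1 point of asf1Δ at 1.12 are the highest.

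The vps75Δ values of the DAL genes on chromosome IX are given here beside those of the chromosome. Of the 175 genes that passed for vps75Δ against the other 4 deletions, 136 lie on chromosome IX, which is 64.8% of its genes, against 0.683% of the genes elsewhere. The DAL2 ratios of 0.59 and 0.69 were below the chromosome's medians of 0.88 and 0.87. Relative to the median of its chromosome, DAL2 in vps75Δ was lower than in the other 3 strains, by −0.37 (limma adjusted p 0.0399), the opposite of its direction above. DAL4, at 0.20 and 0.15 in vps75Δ, was then lower by −0.80 (limma adjusted p 0.00314) and DAL1 by −1.49 (adjusted p 6.20e-05). Against the other 4 deletions DAL1 alone of the 10 genes passed for vps75Δ on that scale (−1.23, limma adjusted p 0.0106), where 0.287% of all genes did; 1.94% did for asf1Δ, 2.4% for rtt106Δ and 0.0169% for nap1Δ. In these chromosome-centred contrasts without chz1Δ, added after seeing the data, 5.35% of all genes passed for vps75Δ, 10.9% for asf1Δ, 5.83% for nap1Δ and 13.1% for rtt106Δ. The DAL1 value needs care, since its reference signal in vps75Δ was 62.2 and 79.8, near the 50 added to each signal. The 18 genes of chromosome IX with a reference signal under 100 had medians of 0.26 and 0.34 on the 2 arrays, against 0.89 and 0.88 for the 192 brighter genes. DAL1 stood at 0.16 and −0.04. The DAL2 and DAL4 probes, with reference signals of 197 to 483, were among the brighter genes.

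DAL1, DAL4 and DAL2 are neighbours in the allantoin gene cluster, followed by DCG1, DAL7 (malate synthase) and DAL3 (ureidoglycolate lyase), with YVH1 and MGA2 outside it, as ordered in the RefSeq table of assembly R64. The cluster did not move as 1 block. In rtt106Δ without and with TSA, DAL1 was 1.49 and 1.43, its neighbour DAL4 was 0.12 and −0.11, DAL2 was 0.44 and 0.48, and DAL3 was 0.61 and 0.66. YVH1, on the other side of DAL1, was −0.30 and −0.37. In vps75Δ DAL7 was 0.97 and 1.19 and DAL3 was 0.91 and 1.10, at or above the chromosome's median, and DCG1 was 0.13 and −0.01. In asf1Δ DAL1 was 0.69 and 0.65 and DAL7 was 0.20 and 0.05.

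**Figure D5:**
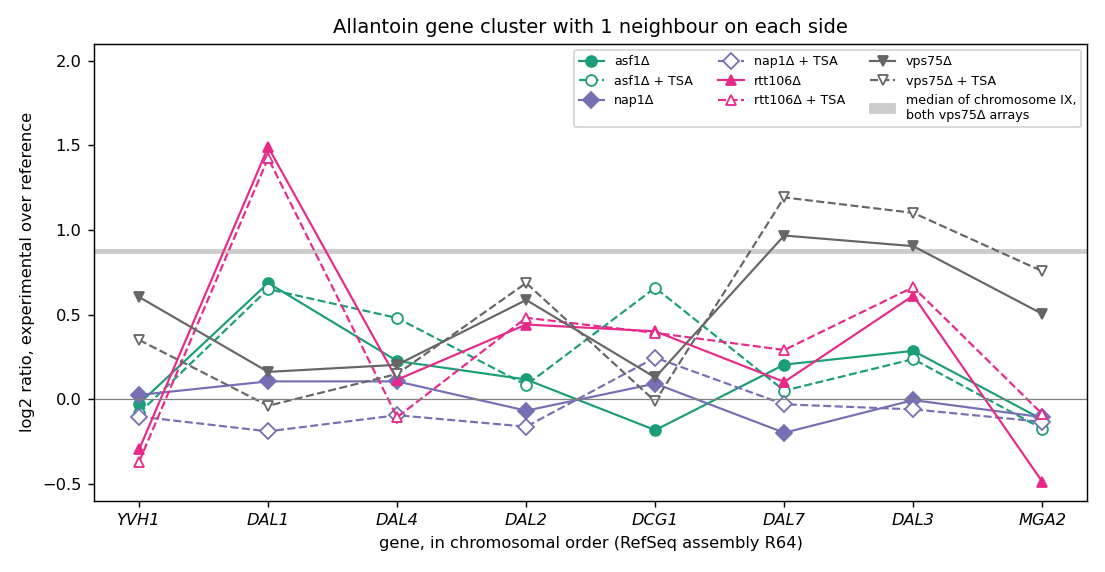
Log2 ratio of the genes of the allantoin cluster and 1 neighbour on each side, in chromosomal order, in 4 deletion strains without TSA (filled, solid lines) and with TSA (open, dashed lines). The grey band marks the median of chromosome IX on the vps75Δ arrays, 0.87 to 0.88. DAL1 peaks in rtt106Δ at 1.49 and 1.43, and DAL7 and DAL3 are highest in vps75Δ.

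The rest of the pathway was described through lists of other permeases, catabolic enzymes, ammonia assimilation, regulators, the amino acid sensor with its permease targets, and vacuolar proteases, 54 genes in the fits. No gene of these lists passed for TSA. Among the catabolic enzymes DUR1,2 (urea amidolyase) had the largest mean TSA difference, 0.61 (SE 0.425), which was 0.07 without the chz1 pair. CAR2 (ornithine transaminase) had 0.48 (SE 0.202) and was higher with TSA in 5 of 5 strains, with 0.23 without the chz1 pair. Among the regulators GAT1, the activator that is itself a target, had 0.38 (SE 0.134) and was higher in 5 of 5 strains, with 0.23 without the chz1 pair. The median mean difference was 0.10 for the 14 catabolic enzymes, 0.10 for the 6 other permeases, 0.20 for the 5 genes of ammonia assimilation, 0.00 for the 11 regulators, 0.09 for the 13 genes of amino acid sensing and 0.18 for the 5 vacuolar proteases. Without the chz1 pair these medians lay between −0.02 and 0.06, and the median of all genes was 0.00 in both.

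For the chz1Δ difference in TSA, 3 of 6 other permeases, 4 of 14 catabolic enzymes, 3 of 5 ammonia genes, 3 of 11 regulators, 4 of 13 sensing genes and 1 of 5 proteases were higher, against 16% of all genes, and 0, 4, 0, 1, 1 and 0 were lower, against 13.9%. The 4 lower enzymes were the near-identical copies ASP3-1, ASP3-2, ASP3-3 and ASP3-4 (asparaginase), whose probes cannot be told apart. DUR1,2 differed by 2.68 (SE 0.335, limma adjusted p 0.00105) and PTR2, a peptide permease, by 2.35 (SE 0.235, adjusted p 4.52e-04). Both are among the genes whose reference stood apart on the chz1Δ array.

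Between strains, 4 genes of these lists passed in the contrast with the other 4, of which 3 of 54 in vps75Δ, against 2.96% of all genes, and 1 of 54 in rtt106Δ, against 2.26%. In vps75Δ the activator gene DAL81 was higher by 1.06 (SE 0.104, limma adjusted p 0.00536), DAL7 by 1.00 (SE 0.106, adjusted p 0.00536) and DAL3 by 0.77 (SE 0.141, adjusted p 0.0308). All 3 lie on chromosome IX, and relative to its median DAL81 was −0.04 and 0.35, DAL7 0.09 and 0.33, and DAL3 0.03 and 0.24 on the 2 vps75Δ arrays. On that scale the contrast was 0.19 for DAL81 (limma adjusted p 0.906), 0.14 for DAL7 (adjusted p 0.957) and −0.09 for DAL3 (adjusted p 0.965), and none of the 3 passed. GDH3, a glutamate dehydrogenase, was higher in rtt106Δ by 0.64 (SE 0.116, limma adjusted p 0.0399). The activator GLN3, the repressor GZF3 and URE2 did not pass in any strain.

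Without the chz1Δ arrays 42 of 216 contrasts of these list genes passed. Rose and fell are meant here relative to the mean of the other 3 deletions, not to the reference. In asf1Δ 10 of 54 genes rose and 1 fell, against 7.82% and 4.1% of all genes. The asparaginase copies ASP3-1 to ASP3-4, which cannot be told apart, rose by 0.85 to 0.90. GDH1, a glutamate dehydrogenase, rose by 0.85 (limma adjusted p 7.45e-04), UGA2, of the GABA route, by 0.73, the vacuolar protease gene PEP4 by 0.68, the vacuolar aminopeptidase gene LAP4 by 0.62, ECM38, a glutamyltransferase, by 0.59 and the arginase gene CAR1 by 0.57. DAL81 fell by 0.39 there (limma adjusted p 0.0349), but the comparison includes vps75Δ, where chromosome IX was high. Relative to the median of chromosome IX, DAL81 in asf1Δ was −0.13 (limma adjusted p 0.418) and did not pass. In nap1Δ 9 of 54 genes were lower than in the other 3 deletions and 0 were higher, against 5.2% and 2.21% of all genes. Among them were PTR2 by 0.97, CAR2 by 0.45, PUT2 by 0.43 and GAT1 by 0.37, and DAL3, DAL7 and DAL81 of chromosome IX. The mean ratios of the nap1Δ arrays were 0.06 for PTR2, 0.25 for CAR2, −0.03 for PUT2 and 0.17 for GAT1, near or above the reference. Relative to the median of that chromosome, DAL3 (−0.36, limma adjusted p 0.0513), DAL7 (−0.27, adjusted p 0.148) and DAL81 (−0.09, adjusted p 0.648) did not pass in nap1Δ. In rtt106Δ 4 of 54 genes rose and 8 fell, against 7.11% and 7.33% of all genes. The 8 include the asparaginase copies ASP3-1 to ASP3-4, at −0.51 to −0.53, so fewer separate genes fell than the count gives. GDH3 rose by 0.70 there, the urea permease gene DUR3 by 0.69 and the ammonium permease gene MEP1 by 0.52, and the vacuolar protease gene PRB1 fell by 0.87. In vps75Δ 5 of 54 genes rose and 5 fell, against 4.64% and 4.54% of all genes. PTR2 rose by 1.14 there (limma adjusted p 3.79e-04), and MEP1 fell by 0.58 and DUR3 by 0.58, while DAL81, DAL7 and DAL3, at 1.11, 1.01 and 0.71, did not pass relative to the median of chromosome IX.

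The genes whose ratios were most like those of a member over the 11 arrays are given by Pearson's r, as a description over arrays that share a reference design. For GAP1 these were UPS2 (r 0.984), MIG1 (0.974) and GZF3 (0.962), and without the 2 chz1Δ arrays r was 0.983, 0.940 and 0.911. For DAL1 they were CYB2 (0.968), VPS25 (0.966) and PAU22 (0.955), with 0.965, 0.981 and 0.963 without chz1Δ. For PUT1 they were CRG1 (0.977), SKM1 (0.972) and UGA2 (0.954), with 0.982, 0.967 and 0.955. For AGP1 they were LSC2 (0.954) and PSK1 (0.951), which fell to 0.757 and 0.761 without chz1Δ, and KIN1 (0.945). For MEP2 they were DUR1,2 (0.951), SWF1 (0.943) and STE2 (0.939), with 0.696, 0.500 and 0.721 without chz1Δ. Among the members, PUT1 and PUT4 correlated at 0.775 over all arrays and 0.905 without chz1Δ, and AGP1 and GAP1 at 0.805 and 0.588.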

How the data were processed

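RNA from 11 yeast cultures was compared with reference RNA on Agilent whole-genome arrays with 2 colours, 1 array per strain and treatment. Each probe was measured 2 times, and per the file headers the authors gave an intensity per channel and measurement, and 1 merged from both. The deposited files also hold a log10 ratio of the channels and a score, a fold with its sign kept to 1 decimal. The series table deposited by the authors holds log2 values of that fold, and its columns for the 2 vps75 arrays hold each other's values. How the scans were background-corrected and the channels scaled is not stated in the sources used here.

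Here 50 was added to the intensities of each repeat measurement. Log2 ratios of experimental over reference RNA were loess-normalized (span 0.3) per measurement within each array with limma 3.58.1 in R 4.3.3. The 2 ratios of a probe were then averaged. Merged intensities were used for the signals, the channel levels and the background limit. A channel counted as well above background when its signal exceeded 2 times the median of 4 marker genes absent from BY4742. A gene entered the fits when a channel passed this on at least 50% of the deletion arrays. Fits used limma's lmFit and eBayes, with p-values adjusted by Benjamini-Hochberg over 5921 genes at a threshold of 0.05. The array of a strain with TSA and that without were paired by strain, from the design. Deviations from the group means correlated at −0.152 within the chz1 pair and between 0.400 (nap1) and 0.676 (vps75) within the other pairs. Separate cultures are not stated, so p-values measure only the spread between arrays. Tested on simulated data, the TSA fit recovered 99% of 100 genes changed by 1 on the log2 scale, and the chz1 difference 70%. The simulated noise came from the TSA differences of the strains other than chz1. Over all genes the SD of the TSA difference was 0.66 in chz1Δ, and 0.18 (rtt106Δ) to 0.26 (asf1Δ) in the others. The 99% may therefore be too high for the real TSA fit, which includes the chz1 pair. For the chz1 difference the 70%, and the 8 false calls beside it, apply only if chz1Δ varies like the other strains. How often that test calls genes falsely under a wider chz1Δ spread was not tested.

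The 10 genes and the lists were chosen with earlier results of these data known. All 10 genes are named. For those at least 2-fold from the reference on an array, the 3 genes of highest correlation are named. From each list the text may name up to 3 genes of largest mean TSA difference, any gene called and any at least 2-fold on 2 arrays. Alternatives covered the normalization, the added amount, the filter, the deposited ratios, the reading of the reference and leaving out each strain. Chromosomes were read from systematic names. Promoter and protein sequences were not used here.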

Additional observations from a re-analysis of the deposited data

Results flagged for a closer look

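In groups of 5 values, the 5 strains without TSA, with TSA or their differences, 10 of 30 had 1 value far from the other 4 by Dixon's test, at a level of about 1 in 20. The share over all genes is not given here, so the count cannot be read as a trait of these 10 genes. Over all genes the SD of the TSA difference was 0.66 in chz1Δ and 0.18 to 0.26 in the other strains, and 29.9% passed limma's test of the chz1Δ difference. The groups share arrays and genes and are not independent. In chz1Δ the TSA difference stood apart for AGP1 (3.35), GAP1 (1.80), MEP2 (0.90), DAL2 (−0.63) and PUT1 (−1.003), and for DAL4 the ratio without TSA (−0.23). In asf1Δ PUT4 stood apart without TSA (0.70), with TSA (0.46) and in its TSA difference (−0.24), and PUT1 with TSA (1.44).

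By limma's test of the difference itself, the TSA difference in chz1Δ differed from that of the other 4 strains by 3.12 for AGP1, 1.52 for GAP1, 1.01 for MEP2, 0.49 for DAL80, −0.63 for DAL2 and −1.03 for PUT1. From the untreated to the treated chz1Δ array the reference channel also changed for all 6. In the same order of genes the changes were −2.69, −1.21, −1.08, 0.71, 0.87 and 0.38. For DAL80 the higher reference lowers the ratio, and its experimental level, not well above background, went up by 1.03. With the experimental channel alone 0 of 10 genes passed.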

How the results depend on the processing

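With 1 array per strain and treatment there is no replicate error, and dim probes limit the values of DAL80 and DAL1. The count of genes called for TSA was 0 with and without the replicate block (strain as the pairing) and 0 without any 1 strain. It was 408 when the reference was read as the untreated deletion, and GAP1 was then the only member called. The median of the members' mean TSA differences, −0.02, was between −0.03 and 0.02 without 1 strain. Centring each array on its median made it 0.15, the authors' log ratios 0.24; it was 0.13 with the series matrix (0.20 with its vps75 columns matched), 0.21 with the experimental channel alone and 0.11 with the other reading of the reference. No TSA difference of a member passed in the main fit, and 24 of 180 recomputed ones changed sign. MEP2 was −0.052 with scale normalization, −0.013 with the other reading and between −0.10 and 0.18 without 1 strain. PUT4 was −0.026 with scale normalization, −0.022 with the vps75 arrays exchanged and between −0.014 and 0.070 without 1 strain. DAL1 was 0.19 with the experimental channel alone and 0.24 with the other reading. DAL2 was 0.23 and 0.13 in those, and between −0.18 and 0.0032 without 1 strain. PUT1 was 0.42 with the other reading and between −0.27 and 0.029 without 1 strain. DAL80 was 0.14 after median centring, 0.050 with nothing added, 0.23 from the authors' log ratios, 0.21 with either form of the series matrix, 0.30 with the experimental channel alone, 0.079 with the other reading and between −0.15 and 0.0037 without 1 strain.

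For the chz1Δ difference 1770 genes passed, and 1133 (without rtt106) to 2171 did without 1 strain. The count was 224 with scale normalization, 725 with the series matrix, 1098 with its vps75 columns matched and 4 with the experimental channel alone, an alternative chosen after seeing the data like the matched and exchanged columns. Of the 6 members, 1 passed with scale normalization (AGP1), 3 with the series matrix and 0 with the experimental channel alone, and 4 to 6 without 1 of the other strains. Without chz1 its difference cannot be made, and 0 contrasts of the remaining 4 strains passed for a member. With the experimental channel alone MEP2 was −0.073, DAL4 0.44, DAL1 0.12 and DAL2 0.12. PUT4 was −0.087 after median centring, −0.095 from the authors' log ratios and −0.12 with the matched matrix. Of 50 strain contrasts 3 passed, against 1 with 200 added, 1 with the series matrix, 0 with the experimental channel alone and 0 to 15 without 1 strain (15 without chz1). DAL2 in vps75Δ was −0.31 with ratios centred by chromosome. Of 110 ratios 9 were beyond 2-fold, against 14 after median centring, 17 with nothing added, 3 with 200 added, 23 from the authors' log ratios and 23 with either series matrix. The causes were not tested.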

Other observations

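Relative to the median of chromosome IX in vps75Δ, DCG1 was low (−0.75 without TSA and −0.88 with it), and DAL1 (−0.72 and −0.90) and DAL4 (−0.68 and −0.72) were low too. DAL3 (0.03 and 0.24) and DAL7 (0.09 and 0.33), of the same cluster, were not. The experimental channel of DCG1 and of DAL1 was not well above background in vps75Δ with TSA. Both probes were dim: outside the untreated chz1Δ array their log2 reference levels were −3.08 to −2.20 and −3.00 to −2.32 relative to the channel median. The 18 genes of chromosome IX with a reference signal under 100 had medians of only 0.26 and 0.34 on the vps75Δ arrays without and with TSA.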
